A study of Homo sapiens with 6 samples.

Results

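The genes followed here encode parts of the cornified envelope, the crosslinked protein shell of squamous epithelial cells, and were measured in Cal27, a cell line from a human squamous carcinoma of the tongue. They were found by symbol among the 57820 Ensembl genes of the count table, and all 10 had a row: the plakins PPL and EVPL, the transglutaminases TGM1 and TGM3, the precursors IVL and CNFN, and the late differentiation proteins ECM1, SBSN, KRTDAP and CDSN. A filter on low counts kept 9 of them, CDSN being lost, among 16396 genes. Total RNA was sequenced from 3 groups of 2 replicates, all given the same batch number in the labels. The CRNN cells received a lentivirus that overexpresses cornulin (CRNN), the GFP cells received the lentiviral GFP control vector, and the untreated cells, given as wild type, served as a further control. Transduced cells were harvested after 48 h, with 8 µg/ml polybrene during transduction. Neither polybrene nor a time of harvest is stated for the untreated cells, so virus, insert, polybrene and time cannot be told apart in comparisons with them. The promoter of the vectors is not stated, nor whether replicates were separate cultures or transductions, so p-values measure the spread between these libraries only.

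In stratified epithelium the envelope is assembled under the plasma membrane of cells that have left the basal layer. Plakins and involucrin are laid down at the membrane, and transglutaminases join them and later precursors through bonds between glutamine and lysine side chains. Secreted and desmosomal proteins of the uppermost layers appear late in the same programme. Carcinoma lines in submerged culture usually express this programme weakly. Cornulin belongs to the S100 fused-type family, whose genes lie in the epidermal differentiation complex on chromosome 1. IVL lies in the same complex, 494 kb from CRNN.

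Library totals ranged from 11817105 counts in GFP replicate 2 to 28041227 in untreated replicate 1. CRNN had 964 and 1028 CPM (counts scaled to library size by TMM) in CRNN cells, 3.06 and 2.55 in GFP cells and 3.51 and 2.08 in untreated cells. The basal and epithelial markers KRT5, KRT14, TP63, EPCAM and CDH1 were detected in every library. Markers of fibroblasts summed to 5.21 and 5.22 CPM in CRNN, 6.44 and 9.10 in GFP cells and 5.50 and 3.96 in untreated cells, those of immune cells to between 5.56 and 9.16 CPM in any library, and the endothelial genes KDR and TEK had at most 2 counts. The summed endothelial list, mostly CDH5, was at 53.4 CPM in untreated replicate 1 and between 8.79 and 14.3 elsewhere. The 13 mitochondrially encoded messenger RNAs, a sign of RNA quality, summed to 10461 and 6194 CPM in CRNN, 15097 and 11933 in GFP cells and 10117 and 12346 in untreated cells. Untreated replicate 1 stood apart, with 110 genes over 4-fold above every other library, against at most 8 elsewhere. The level of a gene relative to the other libraries followed GC content in GFP replicate 1 (rho = 0.63 across genes) and ran against it in GFP replicate 2 (rho = -0.38). The tested envelope genes are GC-rich, at or above the 72.3 percentile of tested genes, so those trends touch them. The same relative level rose with transcript length in GFP replicate 2 (rho = 0.41) and fell with it in CRNN replicate 2 (rho = -0.27). In the other libraries rho for length was between -0.11 and -0.0045. PPL and EVPL are the longest of the envelope genes, with 7699 and 7364 bases of annotated exon, so the length trends touch them most.

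Compared per length, the envelope genes were dominated by the plakin periplakin. PPL had a mean of 61.1 TPM over the 6 libraries (counts per kilobase of annotated exon, scaled to a fixed total), between 42.6 and 83.0, above 93.6% of tested genes. EVPL followed with 11.5 TPM (8.11 to 19.5) and CNFN with 5.10 TPM (2.74 to 12.2). PPL was highest and EVPL next within all 6 libraries, although the ranges of EVPL and CNFN overlapped over libraries. CNFN came after them in 5 libraries, while in GFP replicate 2 KRTDAP had 3.11 TPM and CNFN 2.74 TPM. The next 6, IVL, SBSN, KRTDAP, TGM1, TGM3 and ECM1, had means between 1.24 and 1.78 TPM with overlapping ranges, and neighbours in that order exchanged places from library to library. CDSN was last with 1 count in CRNN replicate 1 and 0 in the other 5 libraries. PPL and EVPL together held between 93.4% and 97.4% of the counts of the 10 genes in each library, and the other 8 summed to between 113 and 408 counts.

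**Figure D1:**
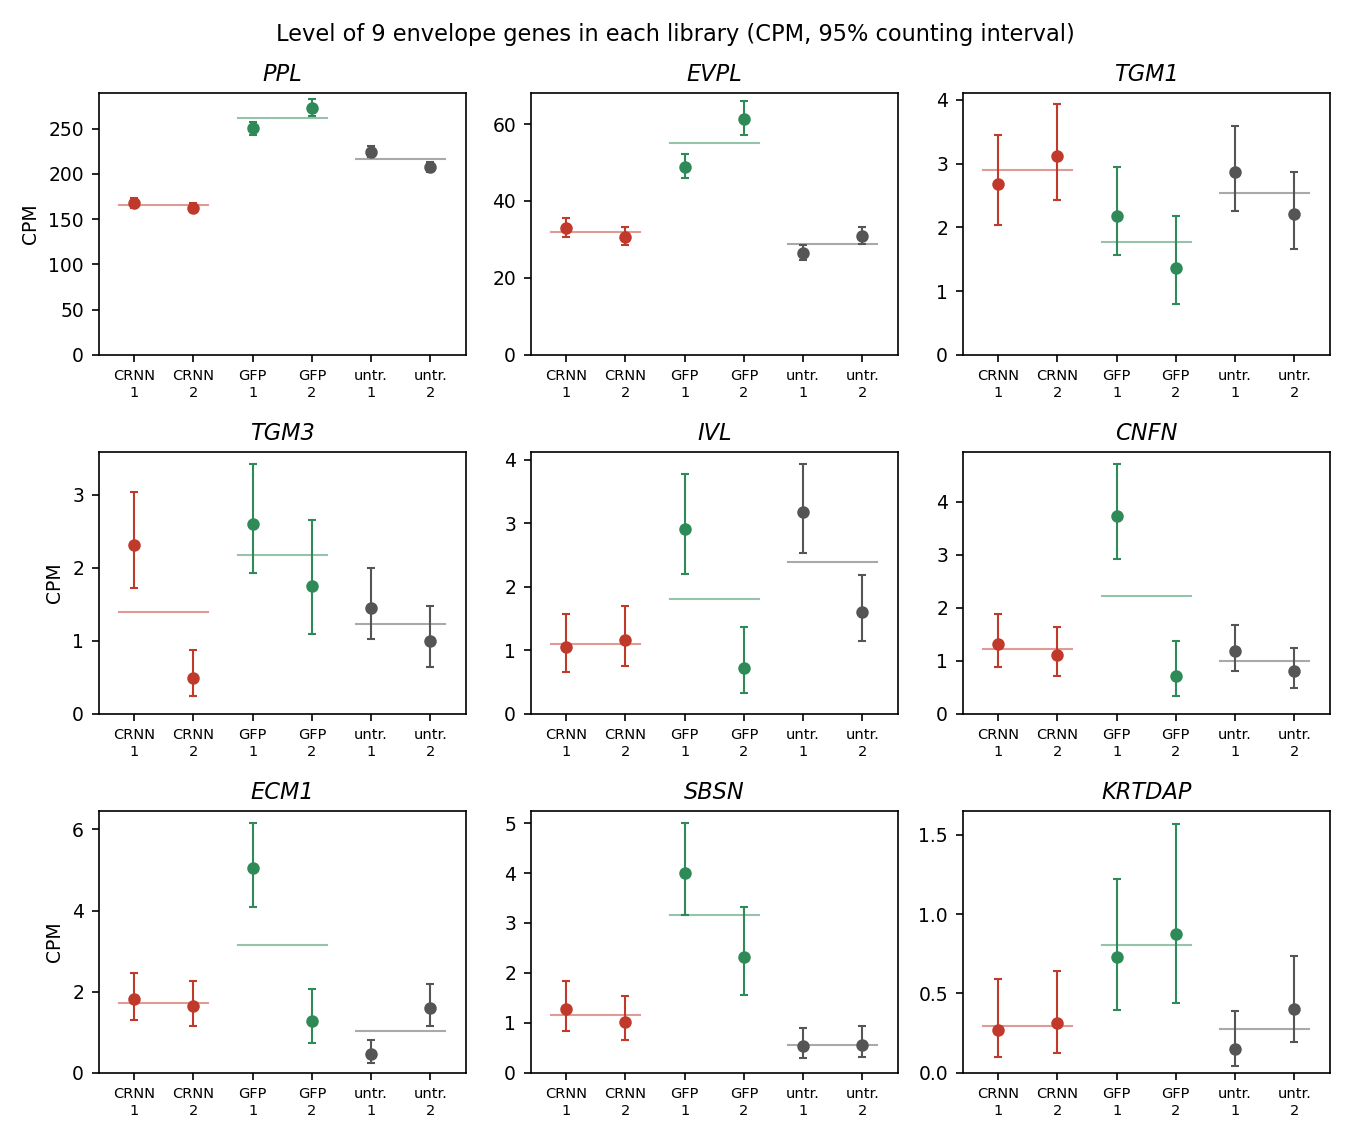
Level in CPM (vertical axes, each from 0) of the 9 tested envelope genes in each library, with the mean of each pair as a line and the exact 95% Poisson interval of the count as a bar; untr. stands for untreated. PPL, EVPL, SBSN and KRTDAP have both GFP libraries above the other 4, while IVL, CNFN and ECM1 are high in GFP replicate 1 and not in GFP replicate 2.

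Periplakin and envoplakin are partners that form heterodimers and tie the envelope to desmosomes and keratin filaments. PPL (ENSG00000118898.11; GRCh38 chromosome 16, 4882507 to 4960741, minus strand) had 168 and 163 CPM in CRNN cells, 250.2 and 273 in GFP cells and 224 and 208 in untreated cells. The 3 groups did not overlap, with GFP highest and CRNN lowest. EVPL (ENSG00000167880.3; chromosome 17, 76004502 to 76027306, minus strand) had 33.0 and 30.7 CPM in CRNN, 48.9 and 61.4 in GFP cells and 26.6 and 31.0 in untreated cells. Both GFP libraries lay above the other 4, and CRNN and untreated cells overlapped. Replicates of both genes were close, the GFP pair of EVPL being the farthest apart. Within a library PPL exceeded EVPL per length by a factor of 4.86 and 5.07 in CRNN, 4.89 and 4.26 in GFP cells and 8.07 and 6.41 in untreated cells. This ratio, which does not depend on library scaling, was lower in all 4 transduced libraries than in both untreated ones, a difference that was not tested. Genes on the opposite strand share 2412 bases with PPL (SEC14L5) and 1498 with EVPL (CDK3 and TEN1-CDK3), and had 23, 29 and 42 counts over all 6 libraries.

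The transglutaminases were scarce. TGM1, the membrane-bound enzyme that crosslinks envelope precursors in suprabasal keratinocytes (ENSG00000092295.7; chromosome 14, 24249114 to 24264432, minus strand), had 2.67 and 3.12 CPM in CRNN, 2.18 and 1.36 in GFP cells and 2.86 and 2.20 in untreated cells. Both GFP libraries lay below the other 4, by a narrow margin. TGM3, a soluble enzyme activated by proteolysis (ENSG00000125780.11; chromosome 20, 2296001 to 2341079, plus strand), had 2.31 and 0.490 CPM in CRNN, 2.597 and 1.76 in GFP cells and 1.45 and 1.00 in untreated cells. The CRNN replicates differed 4.71-fold, on 51 and 11 counts, and their counting intervals did not overlap. TGM3 shares its locus with an unnamed coding gene of the same strand (ENSG00000286022). That gene has no row in the count table, so its reads could be counted for TGM3. Per length, TGM1 exceeded TGM3 in CRNN replicate 2 and in both untreated libraries, and TGM3 exceeded TGM1 in the other 3. TGM2, the widely expressed tissue transglutaminase, chosen here after its values were seen, had 6.71 and 6.74 TPM in CRNN, 16.0 and 4.23 in GFP cells and 38.2 and 3.57 in untreated cells. It was above TGM1 and TGM3 in every library, and its replicates were far apart in both control groups.

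Involucrin and cornifelin are precursors that transglutaminases build into the envelope. IVL (ENSG00000163207.5; chromosome 1, 152908546 to 152911886, plus strand) had 1.04 and 1.16 CPM in CRNN, 2.91 and 0.718 in GFP cells and 3.17 and 1.60 in untreated cells. The GFP replicates differed 4.05-fold, on 56 and 9 counts, and enclosed the CRNN pair, which lay below both untreated libraries. CNFN (ENSG00000105427.5; chromosome 19, 42387019 to 42390297, minus strand) had 1.31 and 1.11 CPM in CRNN, 3.74 and 0.718 in GFP cells and 1.18 and 0.801 in untreated cells. Only GFP replicate 1 stood out, 5.21-fold above GFP replicate 2. An annotated antisense transcript covers IVL (ENSG00000289062), which was not analysed here.

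Among the late proteins, suprabasin gave the clearest separation of the groups. SBSN encodes a secreted protein of the suprabasal layers (ENSG00000189001.6; chromosome 19, 35523367 to 35528351, minus strand). It had 1.27 and 1.03 CPM in CRNN, 4.00 and 2.31 in GFP cells and 0.535 and 0.560 in untreated cells, on 28 and 23, 77 and 29, and 14 and 14 counts. No group overlapped another in CPM, with GFP highest, CRNN between and untreated cells lowest. Counting intervals did overlap, as for CRNN replicate 1 (0.843 to 1.83 CPM) and GFP replicate 2 (1.55 to 3.32). Those of CRNN replicate 2 (0.650 to 1.54) and untreated replicate 2 (0.306 to 0.940) overlapped as well. KRTDAP, a secreted protein of differentiating keratinocytes whose gene lies 27.8 kb from SBSN (ENSG00000188508.6; chromosome 19, 35487324 to 35495558, minus strand), had 0.272 and 0.312 CPM in CRNN, 0.727 and 0.878 in GFP cells and 0.153 and 0.400 in untreated cells. These are 6 and 7, 14 and 11, and 4 and 10 counts; both GFP libraries were highest, and they alone carried the gene past the filter on low counts, so it could enter the tests only by being high there. ECM1, a secreted glycoprotein of skin and mucosal matrix (ENSG00000143369.10; chromosome 1, 150508062 to 150513789, plus strand), had 1.81 and 1.65 CPM in CRNN, 5.04 and 1.28 in GFP cells and 0.458 and 1.60 in untreated cells. GFP replicate 1 was high and untreated replicate 1 low, and neither was matched by its partner. CDSN, which encodes the adhesive corneodesmosin of the outermost layers (ENSG00000204539.3; chromosome 6, 31115087 to 31120446, minus strand), did not pass the filter and was not tested. A count of 0 allows up to 3 counts, or between 0.115 and 0.239 CPM in the 5 libraries without a read.

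**Figure D2:**
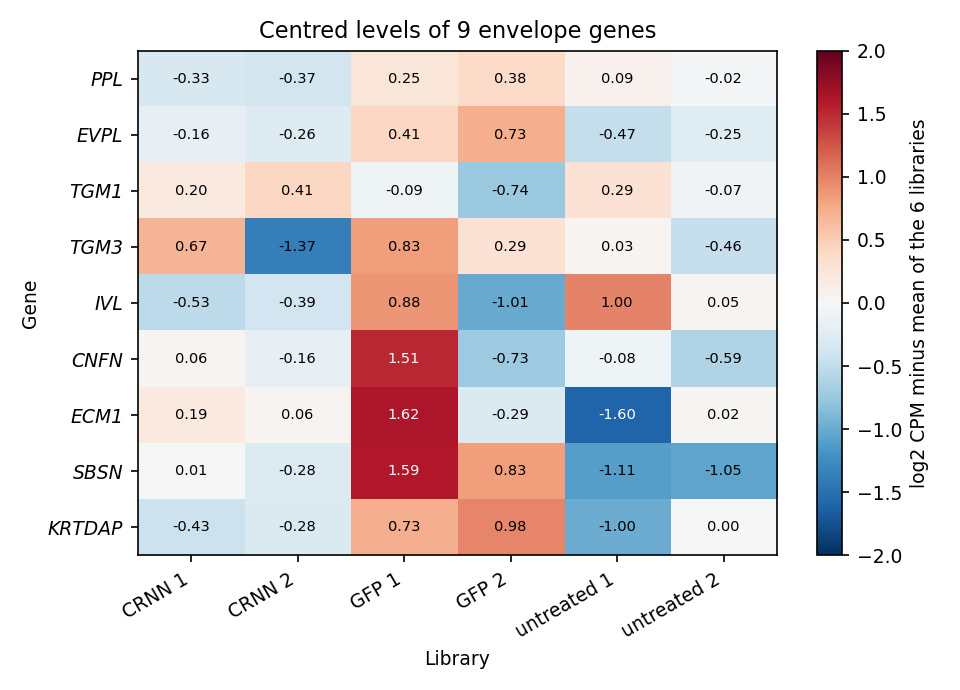
Log2 CPM of the 9 tested genes (rows) minus each gene's mean over the 6 libraries (columns), red above and blue below that mean. GFP replicate 1 holds the highest values for CNFN, ECM1 and SBSN (1.51 to 1.62), and untreated replicate 1 the lowest for ECM1 (-1.60).

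Promoter windows in RefSeq (GRCh38.p14, 250 bases before to 50 after the start of transcription) were present for 7 of the 10 genes, PPL, EVPL and TGM1 being the others. The sequences shown are those of the 4 genes whose window holds TGANTCA, the core letters bound by AP-1 factors, among them the neighbours SBSN and KRTDAP. They are chr1:152908296-152908595 (plus strand) for IVL, chr1:150507859-150508158 (plus strand) for ECM1, chr19:35528262-35528561 (minus strand) for SBSN and chr19:35490415-35490714 (minus strand) for KRTDAP, 5′ to 3′ on the strand of the gene. Capitals mark this AP-1 core, the TATA box letters TATAAA and the GC box letters GGGCGG, all searched on both strands.
IVL: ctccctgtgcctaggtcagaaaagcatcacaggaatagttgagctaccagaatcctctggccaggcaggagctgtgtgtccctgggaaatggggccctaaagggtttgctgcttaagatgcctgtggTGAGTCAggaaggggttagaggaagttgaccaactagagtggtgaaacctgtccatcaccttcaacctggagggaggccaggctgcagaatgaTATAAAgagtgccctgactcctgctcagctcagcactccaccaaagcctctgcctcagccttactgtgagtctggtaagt
ECM1: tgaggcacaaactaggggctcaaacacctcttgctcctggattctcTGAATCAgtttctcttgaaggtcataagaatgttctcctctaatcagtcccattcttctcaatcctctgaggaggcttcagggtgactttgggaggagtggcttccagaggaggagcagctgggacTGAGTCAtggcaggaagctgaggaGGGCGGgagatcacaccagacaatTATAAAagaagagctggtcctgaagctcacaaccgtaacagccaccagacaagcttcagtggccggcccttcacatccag
SBSN: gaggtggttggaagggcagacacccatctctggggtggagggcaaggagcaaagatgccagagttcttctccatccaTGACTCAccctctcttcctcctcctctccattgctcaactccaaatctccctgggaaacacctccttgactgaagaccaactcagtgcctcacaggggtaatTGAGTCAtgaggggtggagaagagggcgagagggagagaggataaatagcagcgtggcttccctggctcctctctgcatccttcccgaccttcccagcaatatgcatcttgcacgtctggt
KRTDAP: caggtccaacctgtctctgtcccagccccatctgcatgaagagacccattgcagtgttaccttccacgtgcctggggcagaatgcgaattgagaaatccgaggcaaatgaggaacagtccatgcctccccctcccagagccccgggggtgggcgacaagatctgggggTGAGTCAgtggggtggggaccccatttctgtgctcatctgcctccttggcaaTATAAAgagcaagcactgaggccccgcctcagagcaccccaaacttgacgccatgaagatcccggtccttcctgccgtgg
The AP-1 core began at -123 from the start in IVL, at -204 and -78 in ECM1, at -173 and -71 in SBSN and at -82 in KRTDAP. The RefSeq window of KRTDAP lies inside the gene span given above (35487324 to 35495558), not at its 5′ end. Its positions and its distance to SBSN therefore use different starts. It was in 4 of the 7 windows, and in 7.71% of 35116 such windows of all genes. TATAAA began at -30 in IVL, ECM1, KRTDAP and TGM3, and was in 11.5% of all windows. GGGCGG was in the windows of ECM1 and CNFN and in 45% of all windows. A match describes letters only, and no binding was measured.

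The comparison of CRNN with GFP sets the cornulin virus against the GFP vector in transduced cells. An effect of cornulin and an effect of the GFP vector cannot be told apart in it. Envelope transcripts were mostly lower in CRNN than in GFP, TGM1 apart, but none passed the test over all genes. SBSN and KRTDAP were at 0.362 and 0.371 of their GFP level, and EVPL and PPL at 0.578 and 0.631. Of the 9 tested genes 0 were called (edgeR quasi-likelihood test, adjusted p under 0.05), where 0.0183% of all tested genes were, CRNN included; DESeq2 and limma-voom also called 0, DESeq2 leaving the adjusted p of 6 undefined. At an unadjusted p under 0.05 edgeR had 3 (4.39% of all genes), of which 3 were lower (2.90% of all genes) and 0 higher (1.49%). The log2 fold change was above 0 in 1 of the 9 genes, against 49.9% of all genes, and its median was -0.79, against -0.0017 over all tested genes. Without KRTDAP, which only the GFP libraries carried past the filter, it was above 0 in 1 of 8 genes, with a median of -0.77. In such bulk samples, fewer cells expressing a gene and less RNA per cell cannot be told apart.

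SBSN had the smallest p of the group in CRNN against GFP (log2 fold change -1.47, SE 0.44, 95% interval -2.47 to -0.46; unadjusted p = 0.00929, adjusted p = 0.999, edgeR). EVPL had -0.79 (SE 0.26, 95% interval -1.38 to -0.20) and PPL had -0.66 (SE 0.25, 95% interval -1.24 to -0.088), both with an adjusted p of 0.999 in edgeR. After a correction for GC content and length these became -0.48 for EVPL and -0.44 for PPL, while SBSN stayed at -1.41. The unadjusted p by edgeR was then 0.136 for EVPL, 0.0881 for PPL and 0.00578 for SBSN. KRTDAP had -1.43 (SE 0.65) and an interval from -2.90 to 0.037. TGM1 was the exception in direction, at 0.69 (SE 0.41, 95% interval -0.24 to 1.62). In 4 genes both CRNN libraries lay below both GFP libraries and in 1 above, which 18.7% and 19.4% of all tested genes did; without KRTDAP 3 of 8 lay below. The 13 mitochondrial messenger RNAs were lower in CRNN too, with a median log2 fold change of -1.05, and their part in the result was not tested.

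The remaining differences between CRNN and GFP rested on single libraries. CNFN had a log2 fold change of -0.91 (SE 0.67), ECM1 -0.89 (SE 0.70) and IVL -0.76 (SE 0.64). Without GFP replicate 1 all 3 turned positive, at 0.75, 0.44 and 0.61, and without GFP replicate 2 they were -1.62, -1.54 and -1.40. TGM3 had -0.65 (SE 0.65), but 0.078 without CRNN replicate 2 and -2.15 without CRNN replicate 1. The 95% intervals of these 4 genes reached from between -2.48 and -2.13 to between 0.60 and 0.84, so each holds both a 4-fold lower and a 1.5-fold higher level.

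**Figure D3:**
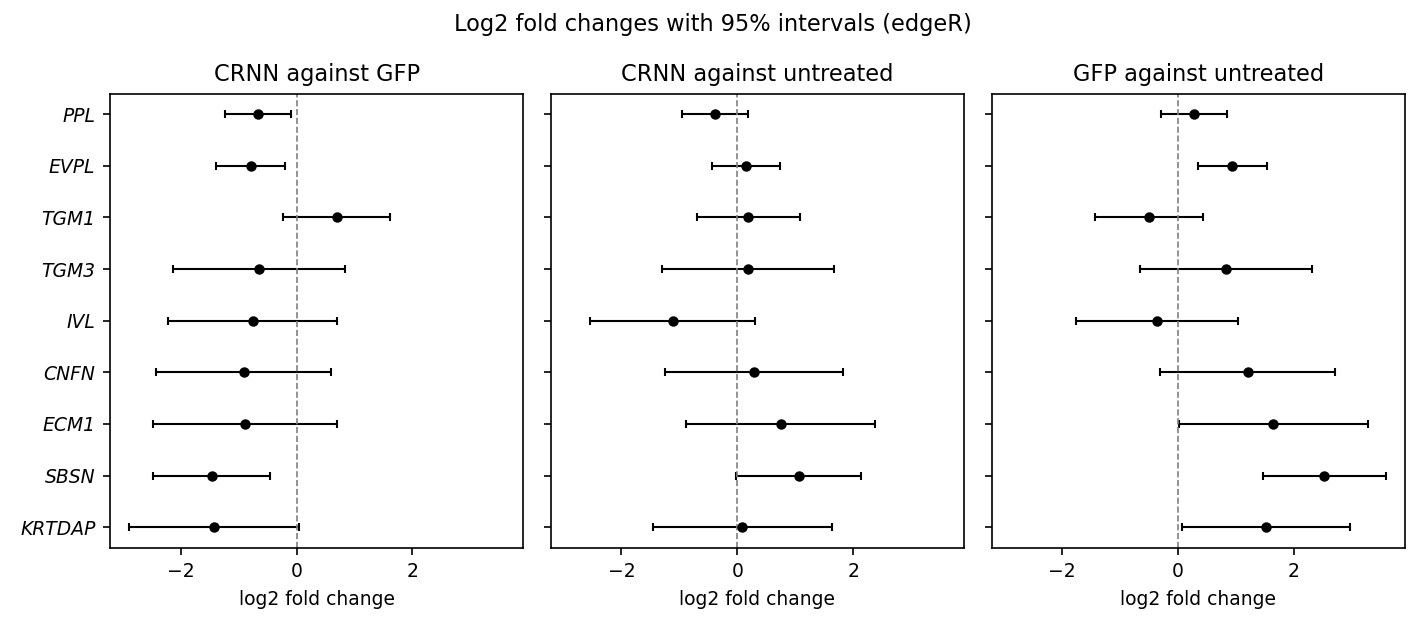
Log2 fold changes (horizontal axes; points) with 95% intervals (bars) of the 9 tested genes in the 3 comparisons, edgeR with all 6 libraries. Intervals that leave out 0 belong to PPL, EVPL and SBSN in CRNN against GFP and to EVPL, ECM1, SBSN and KRTDAP in GFP against untreated; none of these has an adjusted p under 0.05.

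Against untreated cells, most log2 fold changes of the CRNN cells were positive and small, with a median of 0.19 against -0.0091 over all tested genes. SBSN was 2.08-fold higher and IVL was at 0.462 of the untreated level. Again 0 of the 9 tested genes were called by edgeR, DESeq2 or limma-voom, where edgeR called 0.0061% of all genes, and 0 had an unadjusted p under 0.05, against 4.48% of all genes (1.52% higher and 2.96% lower). The log2 fold change was above 0 in 7 of the 9, against 49.1% of all genes. Both CRNN libraries lay above both untreated ones in 2 genes and below in 2, which 18.7% and 18.4% of all tested genes did. SBSN had a log2 fold change of 1.06 (SE 0.47, 95% interval -0.015 to 2.13; adjusted p = 0.989, edgeR) and kept to between 0.90 and 1.20 whichever library was left out. IVL had -1.11 (SE 0.63, 95% interval -2.54 to 0.31), or -0.54 and -1.51 when untreated replicate 1 or 2 was left out. PPL had -0.39 (SE 0.25), ECM1 0.75 (SE 0.72), and the other 5 between 0.085 and 0.29. ECM1 was at 0.11 without untreated replicate 1 and at 1.91 without untreated replicate 2. The interval of EVPL ran from -0.44 to 0.74.

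The GFP cells against untreated cells, which set the vector and its handling against no virus, held the largest fold change among the tested envelope genes. SBSN was 5.76-fold higher, ECM1 3.12-fold, KRTDAP 2.86-fold and EVPL 1.91-fold. SBSN had a log2 fold change of 2.53 (SE 0.47, 95% interval 1.46 to 3.59; unadjusted p = 4.66e-04, adjusted p = 0.711, edgeR), the smallest p but 4 among the 16396 tested genes. It was called by DESeq2 (2.54, SE 0.59, adjusted p = 0.0211), by edgeR with no filter on low counts (2.48, adjusted p = 0.00862) and by edgeR without untreated replicate 2 (2.58, adjusted p = 0.0374), and not by limma-voom. Over all genes those settings called 29, 195 and 823, against 0 in the fit given first. Over all settings tried its log2 fold change stayed between 2.07 and 2.86, with the lower value without GFP replicate 1. EVPL had 0.94 (SE 0.26, 95% interval 0.34 to 1.53; unadjusted p = 0.00612, adjusted p = 0.711, edgeR), and 0.65 after the GC and length correction.

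By edgeR 0 of the 9 tested genes were called in GFP against untreated, as were 0% of all genes, and by limma-voom 0, against 1 by DESeq2. At an unadjusted p under 0.05 edgeR had 4 (6.93% of all genes), with 4 higher and 0 lower, against 4.03% and 2.90% of all genes. Without KRTDAP, which the GFP libraries alone carried past the filter, 3 of 8 genes were higher. Both GFP libraries lay above both untreated ones in 5 genes and below in 1, which 16.2% and 15.5% of all tested genes did, or in 4 and 1 of 8 without KRTDAP. Of the 9 genes 7 had a log2 fold change above 0, or 6 of 8 without KRTDAP, against 48.9% of all tested genes. The median log2 fold change was 0.94, or 0.89 without KRTDAP, against -0.013 over all tested genes. Without untreated replicate 1, the library that stood apart, SBSN was at 2.50, EVPL at 0.83, KRTDAP at 0.98 and ECM1 at 1.02. KRTDAP had 1.51 (SE 0.64) and ECM1 1.64 (SE 0.72), which for ECM1 was 0.31 without GFP replicate 1 and 2.82 without untreated replicate 2. CNFN had 1.20 (SE 0.67) and turned to -0.46 without GFP replicate 1. TGM3 had 0.84 (SE 0.65), PPL 0.28 (SE 0.25), IVL -0.36 (SE 0.62) and TGM1 -0.50 (SE 0.41). The mitochondrial messenger RNAs were higher in GFP too, with a median of 0.70, and their part was not tested.

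**Figure D4:**
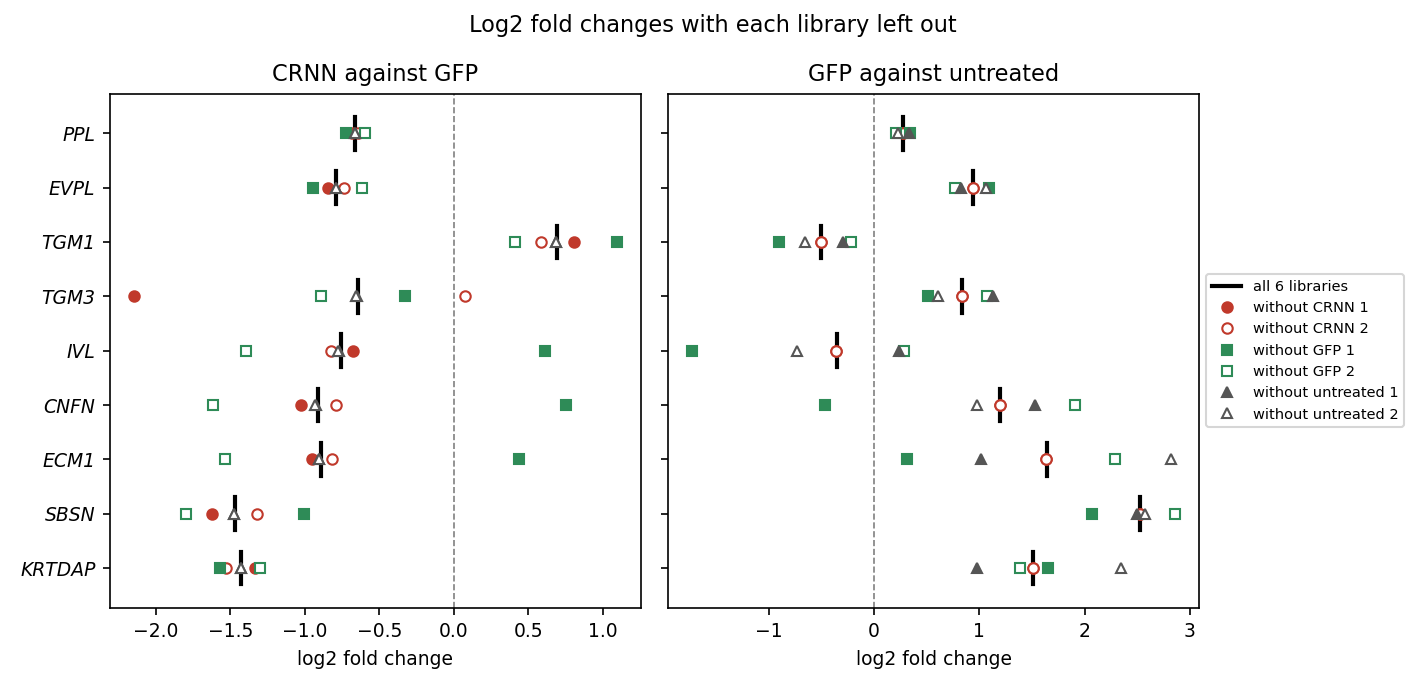
Log2 fold changes (horizontal axes) of the 9 tested genes with all 6 libraries (black bars) and with each library left out in turn (symbols), for CRNN against GFP and GFP against untreated. PPL, EVPL, SBSN and KRTDAP stay on their side of 0 throughout, whereas IVL and CNFN cross it in both panels and ECM1 and TGM3 in CRNN against GFP. In PPL, EVPL, SBSN and KRTDAP both GFP libraries lie above the other 4, so leaving out a single library could hardly turn their direction.

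The comparisons with GFP share its libraries, so they are not independent. In PPL, EVPL, SBSN and KRTDAP both GFP libraries lay above the other 4, as did those of 9.63% of all tested genes, and in TGM1 both lay below, as for 8.94%. KRTDAP was tested only because it was high in GFP; without it the pattern above the other 4 holds in 3 of 8 genes. For SBSN the log2 fold changes were -1.47 for CRNN against GFP, 1.06 for CRNN against untreated and 2.53 for GFP against untreated, so that CRNN cells stood between the controls. For EVPL they were -0.79, 0.15 and 0.94, with CRNN near the untreated level. For PPL they were -0.66, -0.39 and 0.28, with CRNN below both.

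Other envelope genes were read from the same fits. Of 22 small proline-rich, late envelope and S100 fused-type genes 13 were tested; 0 were called in CRNN against GFP by edgeR, DESeq2 or limma-voom, and 5 were lower at an unadjusted p under 0.05 by edgeR, as were 2.90% of all genes, with a median log2 fold change of -1.48. In GFP against untreated the median was 1.64, with 12 of 13 positive, 4 higher at an unadjusted p under 0.05 (4.03% of all genes), 0 called by edgeR or limma-voom and 1, SPRR2G, by DESeq2. SPRR2G, a small proline-rich envelope precursor, had 0.0907 and 0.223 CPM in CRNN, 2.54 and 1.04 in GFP cells and 0.115 and 0 in untreated cells. SPRR2E of the same family had 1.22 and 0.847 CPM in CRNN, 4.99 and 2.31 in GFP cells and 0.917 and 1.44 in untreated cells. Both of its GFP libraries lay above the other 4, as did those of 9.63% of all tested genes. The genes named from this list had its smallest p in comparisons with GFP, which favours that pattern. SPRR2G and LCE3D passed the filter on low counts through the GFP libraries alone, so they could enter the tests only by being high there. LCE3D had 0.136 and 0.0446 CPM in CRNN, 0.935 and 0.479 in GFP cells and 0.153 and 0.400 in untreated cells. The medians and counts of this list were not recomputed without these genes. The summed level of this list was 40.3 and 31.7 CPM in CRNN, 148 and 43.1 in GFP cells and 16.6 and 38.1 in untreated cells, with GFP replicate 1 far above the rest. FLG2, a filaggrin-like protein of this list, had 0.0907 and 0.847 CPM in CRNN, 0.104 and 6.07 in GFP cells and 0.0382 and 0.0400 in untreated cells, and so was highest in GFP replicate 2, far above its partner.

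Envelope partners and other transglutaminases had no common direction. Of 16 genes 11 were tested, with a median of -0.13 in CRNN against GFP, where 0 were called by the 3 tools and 1 was higher at an unadjusted p under 0.05 by edgeR (1.49% of all genes). That gene was CALML3, a calmodulin-like protein of epithelium, with 18.0 and 21.4 CPM in CRNN, 9.04 and 8.14 in GFP cells and 10.5 and 12.2 in untreated cells (log2 fold change against GFP 1.20, SE 0.28, adjusted p = 0.999, edgeR). PI3, the elastase inhibitor elafin and a transglutaminase substrate, had 10.5 and 9.49 CPM in CRNN, 50.6 and 4.79 in GFP cells and 1.49 and 2.56 in untreated cells. Both transduced groups lay above untreated cells, and the GFP replicates were far apart. In GFP against untreated the median of the list was 0.038, with 0 called by the 3 tools and 1 higher at an unadjusted p under 0.05 (4.03% of all genes).

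Among 20 cornified lipid, protease and processing genes 14 were tested, with medians of 0.027 in CRNN against GFP and 0.22 in GFP against untreated. By edgeR 0 were called in either, with 0 and 3 at an unadjusted p under 0.05, where 4.39% and 6.93% of all genes were. PADI3, which converts arginine to citrulline in late differentiation proteins, had 7.21 and 9.76 CPM in CRNN, 7.11 and 9.66 in GFP cells and 24.4 and 23.1 in untreated cells. DESeq2 called it lower in both transduced groups against untreated cells, and edgeR did not (GFP against untreated -1.51, SE 0.30, adjusted p = 0.711). ALOXE3, a lipoxygenase of the lipid barrier, had 1.68 and 0.847 CPM in CRNN and 3.06 and 2.15 in GFP cells. In untreated cells it had 0.879 and 1.04 CPM. Both of its GFP libraries lay above the other 4, as did those of 9.63% of all tested genes. ALOXE3 was named for its small p in comparisons with GFP, which favours genes with this pattern.

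Keratins and regulators of the programme did not follow the envelope genes as a group. Of 8 spinous and granular keratins 7 were tested, with medians of 0.016 in CRNN against GFP and -1.11 in GFP against untreated and 0 called by the 3 tools. By edgeR 1 and 3 of them were below an unadjusted p of 0.05, against 4.39% and 6.93% of all genes. KRT13, a keratin of the suprabasal oral mucosa, had 109 and 116 CPM in CRNN, 52.1 and 43.3 in GFP cells and 78.2 and 184 in untreated cells, so that GFP was lowest. KRT1, a suprabasal keratin of epidermis, had 7.03 and 11.9 CPM in CRNN, 4.62 and 9.90 in GFP cells and 1.53 and 2.64 in untreated cells. Of 22 differentiation transcription factors 20 were tested, with medians of -0.065 and -0.15, 0 called by the 3 tools and 1 and 0 at an unadjusted p under 0.05 by edgeR, beside the same shares of all genes. ELF3, an epithelial ETS factor, had 107 and 121 CPM in CRNN, 35.3 and 84.2 in GFP cells and 77.0 and 86.5 in untreated cells. FOSL1, an AP-1 subunit, had 38.4 and 31.6 CPM in CRNN, 241 and 30.2 in GFP cells and 636 and 37.8 in untreated cells, high in replicate 1 of each control. Of 10 basal keratinocyte genes all were tested, with medians of -0.11 and -2.75e-04; 0 were called by edgeR or limma-voom, and in each of these comparisons 2 were below an unadjusted p of 0.05, again beside 4.39% and 6.93% of all genes. DESeq2 called ITGB4, a hemidesmosomal integrin, higher in GFP than in untreated cells, with 348 and 298 CPM in CRNN, 549.7 and 517 in GFP cells and 232 and 255 in untreated cells.

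In CRNN against untreated these lists had medians of 0.28 for the small proline-rich, late envelope and S100 fused-type genes, -0.067 for envelope partners, 0.13 for lipid and protease genes, -0.070 for transcription factors, -0.22 for keratins and 0.018 for basal genes. By edgeR and limma-voom 0 of their genes were called there, and by DESeq2 1, PADI3. At an unadjusted p under 0.05 edgeR had 0, 2, 4, 5, 2 and 0 of them in the same order, against 4.48% of all genes. DESeq2 left some adjusted p-values undefined in CRNN against GFP, up to 8 in a list.

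The genes whose level over the 6 libraries was most like the mean centred log2 CPM of the 9 tested envelope genes were SMPD4, SLC38A7, KCNH3, DNM2 and ABL1, with Pearson r between 0.982 and 0.992 and Spearman rho between 0.829 and 0.943, among 12990 candidates of which 214 exceeded 0.9. That mean was -0.035 and -0.29 in CRNN, 0.86 and 0.049 in GFP cells and -0.32 and -0.26 in untreated cells, highest in GFP replicate 1. Without the 2 GFP libraries together r was between 0.632 and 0.945. How far the likeness rests on GFP replicate 1 alone was not tested. The libraries share their depth and GC trends across all genes, and these correlations are a description.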

How the data were processed

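Whole-number counts per gene for 6 libraries were deposited by the authors, without normalization. The submitters' processing notes list STAR 2.6, HTSeq 0.6.1, bcl2fastq, edgeR and FastQC 0.11.7 and the builds hg19, GRCh37 and GRCh38, without their roles; per the labels' protocols the kit was stranded total RNA. The annotation and strand setting are not given in the sources used here. Gene names, coordinates and exon lengths came from GENCODE release 44 (GRCh38), matched by identifier without version (51996 of 57820). edgeR's filterByExpr (minimum count 10, total 15) left 16396 genes.

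All 6 libraries were fitted together (edgeR 4.0.16, quasi-likelihood F test, TMM, R 4.3.3; no covariate), giving two-sided p-values with Benjamini-Hochberg adjustment over the whole table and a threshold of 0.05. The SE is the log2 fold change divided by the square root of F, and 95% intervals use 8.83 degrees of freedom. Alternatives included DESeq2 1.42.0 and limma-voom 3.58.1. Poisson intervals and the floor of 3 counts cover counting error only. The procedure was tested on simulated data.

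The genes, lists, motifs and tests were chosen with earlier results of these data known. Beyond the 10 genes and CRNN, the text names from each list up to 3 genes with the smallest p in CRNN against GFP or GFP against untreated, and the 5 genes most alike over libraries. Outside that rule it names TGM2, chosen after its values were seen, markers of cell types and genes that overlap the envelope genes.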

Additional observations from a re-analysis of the deposited data

How the results depend on the processing

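PPL, EVPL, SBSN and TGM1 kept their direction in CRNN against GFP and in GFP against untreated under every alternative run, and KRTDAP under every one that kept it (a filter of 1 CPM in 2 libraries left it out). In each of these genes both GFP libraries lay above or below the other 4, so leaving a library out could hardly turn the direction. PPL in GFP against untreated went from 0.28 to as low as 0.036 under an alternative other than leaving a library out. Against GFP, CRNN had 3 called genes, but 22 by DESeq2, 34 with no filter, 13 with only the 2 groups fitted, 1 after the GC and length correction, also with the replicate block, and 0 to 13 with a library left out. Against untreated cells 1 became 7 by DESeq2, 152 with no filter and 1 to 825 with a library left out. GFP against untreated had 0, but 29 by DESeq2, 195 with no filter and 0 to 823 with a library left out. The counts of 825 and 823 came without untreated replicate 2, the 13 without either untreated library and the lowest 0 in CRNN against GFP without either GFP library; the cause was not tested. The envelope genes called stayed at 0 except in GFP against untreated, with 1 (SBSN) by DESeq2, 1 with no filter and 0 to 1 with a library left out. In CRNN against untreated TGM3 reversed under limma-voom (-0.17), the replicate block (-0.0069) and the block with the correction (-0.027), and KRTDAP under the correction (-0.068) and the block with it (-5.86e-04). With a library left out, CRNN against GFP ranged from -1.40 to 0.61 for IVL, -2.15 to 0.078 for TGM3, -1.54 to 0.44 for ECM1 and -1.62 to 0.75 for CNFN; CRNN against untreated from -1.31 to 0.91 for TGM3 and -0.45 to 0.92 for KRTDAP; GFP against untreated from -1.73 to 0.28 for IVL and -0.46 to 1.91 for CNFN. Leaving a library out leaves a group with a lone sample, assumed to vary like the others. The labels do not pair replicate numbers: differences between replicates had r = 0.26 for CRNN and GFP, -0.071 for CRNN and untreated and 0.19 for GFP and untreated over 11729 genes, and the replicate block gave 4 called genes in CRNN against GFP in place of 3. Depth limits the 8 scarce genes, at most 97 counts in a library. The newer edgeR dispersion method, added after seeing the data, moved no count of calls.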
